A study of Mus musculus with 12 samples.

Results

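RNA-Seq of the abdominal aorta was compared between CCN2SMCΔ mice infused with Ang II (CSA, mice 01, 02 and 03) and CCN2SMCΔ mice given saline (CSS, mice 54, 55 and 56), in order to describe the 7-day response to Ang II in a wall whose smooth muscle cells (SMC) carry a deletion of CCN2. These are 6 of the 12 libraries of the study, chosen by genotype and treatment, with 1 library per mouse and 3 mice per group. A gene was tested if it reached 1 FPKM (fragments per gene, divided by exon length and library size) in at least 3 of the 12 libraries, and 14676 of 55092 listed features did so. All mice were males that received tamoxifen at 8 weeks of age. In CCN2SMCΔ mice the tamoxifen-activated Cre is driven by the Myh11 promoter, so that floxed Ccn2 is lost in cells with an active Myh11 promoter and kept in fibroblasts, endothelium and leukocytes. The CCN2fl/fl mice, floxed but without Cre, form the other 6 libraries (CFS with saline, CFA with Ang II) and serve here for comparison. Ang II was delivered at 500 ng/kg/min by mini-osmotic pump for 7 days, and the saline groups carried pumps as well. The infrarenal segment was taken whole, so that each value sums over all layers and cell types of the wall.

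Ang II is the effector peptide of the renin-angiotensin system and constricts arteries through AT1 receptors on medial SMC. Mature SMC express a program of actin, myosin and associated proteins that is driven by serum response factor (SRF) and its coactivator myocardin through the CArG box, and they can lose this program in injured or aneurysmal walls. CCN2, or connective tissue growth factor, is a secreted matricellular protein that binds growth factors, integrins and matrix. Prolonged Ang II infusion is widely used in mice to induce abdominal aortic aneurysm, a disease in which elastic lamellae break and leukocytes enter the media and adventitia.

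Between 14558580 and 23107802 fragments were recovered per library from the deposited values (18699832, 19132084 and 14558580 for CSA01, CSA02 and CSA03, and from 18870217 to 22805464 for CSS). The library of CSA03 stood apart from the others. The most common fragment count above 0 was 6 in CSA03 and 1 in each of the other 11 libraries, features with a single fragment made up 1.48% of its detected features against 5.43% to 10.02% elsewhere, and 743 tested genes were listed at 0 in it against at most 349 in any other library. Features with low values were thus under-represented in CSA03, and results are given with and without it where it matters. The root mean square distance on the log2 scale was 0.505 between CSA01 and CSA02, and CSA03 lay 1.21 and 1.20 from these. Distances between CSS and CSA mice ranged from 1.51 to 1.95, larger than each of the distances within CSA and within CSS.

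Ccn2 itself, located at chr10:24595442-24598683, plus strand (GRCm38), was detected in all 12 mice. It measured 709.5, 1108 and 480.1 FPKM in the CFS mice, 1013, 1105 and 564 FPKM in CFA, 436, 639.9 and 586 FPKM in CSS mice 54, 55 and 56, and 255, 331 and 399 FPKM in CSA mice 01, 02 and 03. The 3 CSA values lay below all others. The CSA mean was 0.592 of the CSS mean (p = 0.1 in a two-sided exact permutation test, which cannot go lower with 3 mice against 3) and 0.367 of the CFA mean (p = 0.1), while the CSS mean was 0.723 of the CFS mean with overlapping values (p = 0.4). In the fit across all genes the log2 fold change of Ccn2 between CSA and CSS was -0.76 ± 0.34 (± SE of the fit, here and below; adjusted p = 0.0871) and it was not called. The value also counts transcripts of cells without Cre and does not resolve the floxed part of the gene, so that it is a partial check of the genotype.

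**Figure D1:**
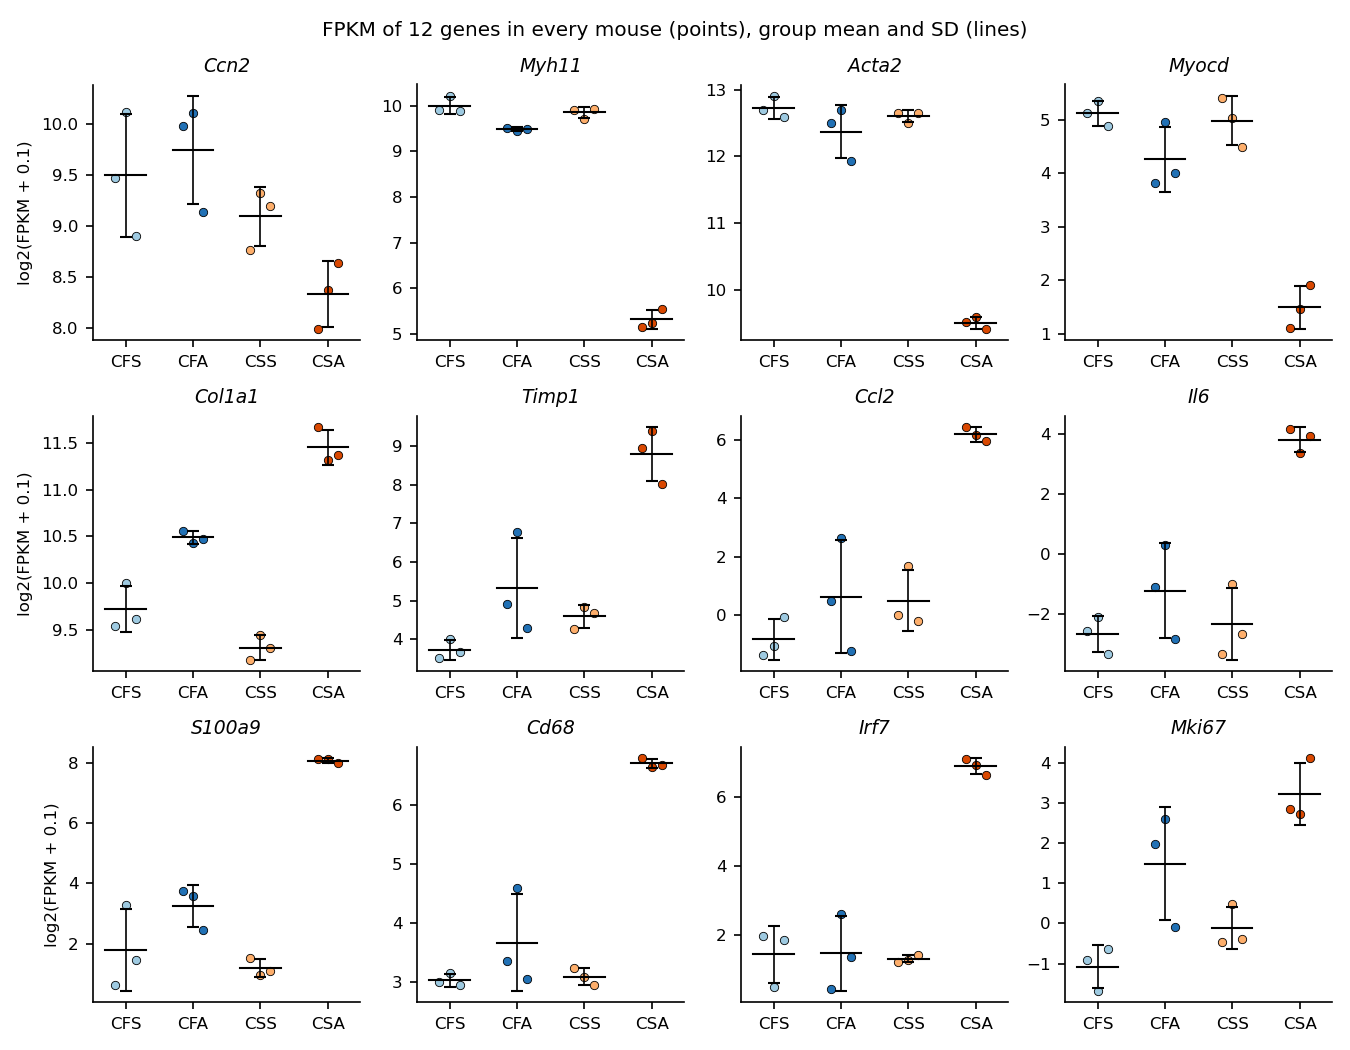
FPKM of 12 genes in each of the 12 mice on the log2(FPKM + 0.1) scale, by group (CFS, CFA, CSS, CSA). Points are mice, and lines give the group mean and SD. Myh11, Acta2 and Myocd were lower in the 3 CSA mice than in the 3 CSS mice, Ccn2 was lower by less, and the other 8 genes were higher.

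A gene was called when its adjusted p in the limma fit was under 0.05 and its absolute log2 fold change over 1.5. With Ang II, 1604 genes were upregulated (10.9% of those tested) and 1373 were downregulated (9.36%), 20.3% together. In the CCN2fl/fl mice the same comparison called 4 genes in either direction (0.0273%), with 1383 genes at an unadjusted p under 0.05. The 3 CSA values lay above the 3 CSS values for 3859 genes (26.3%) and below them for 4276 (29.1%). The median absolute log2 fold change was 0.601 between CSA and CSS and 0.185 between CFA and CFS. Of the tested genes, 1206 passed the limit of 1 FPKM only because of their CSA values, and 819 of them were among the 1604. Among the 13470 genes that passed it in the 9 libraries outside CSA, 785 were upregulated (5.83%). Without CSA03, 1644 genes were upregulated, sharing 1489 with the full comparison, and 1205 were downregulated, sharing 1123. The p-values set a difference between groups against the spread among mice, estimated over all 4 groups and moderated across genes. That spread is not the one of CSA alone, whose mice lay 0.972 apart on average against 0.611 in CSS.

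The largest increases included genes of myeloid cells and of the acute phase. Saa3, which encodes an inflammation-induced serum amyloid A, measured 0.248, 0.124 and 0.282 FPKM in CSS54, CSS55 and CSS56 and 162, 299 and 152 FPKM in CSA01, CSA02 and CSA03, and values below follow the same order of mice. Its log2 fold change was 9.29 ± 0.63 (adjusted p = 1.23e-06). Slfn4, a Schlafen family gene of myeloid cells, stood at 0.299, 0.259 and 0.313 FPKM with saline and 230.5, 223 and 199 FPKM with Ang II (log2 fold change 9.12 ± 0.48). Both genes were under 1 FPKM in every saline mouse and high in every Ang II mouse. Cxcl5, a chemokine for neutrophils, was listed at 0 in all 3 CSS mice and at 41.5, 37.8 and 36.9 FPKM in CSA, and the predicted gene Gm36107 at 0 in CSS and at 12.7, 20.9 and 23.4 FPKM in CSA, so that no fold can be given for either. Spp1, encoding osteopontin, rose from 3.92, 2.65 and 3.18 FPKM to 368, 430.3 and 589 FPKM (7.1 ± 0.66). The Fc receptor gene Fcgr4, the kininogen gene Kng2, Ms4a4c of the MS4A membrane protein family and the neutrophil gene Retnlg increased by 7.15, 7.23, 8.1 and 7.23 on the log2 scale.

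Among the largest decreases, Sost, encoding the Wnt antagonist sclerostin, fell from 247, 275 and 333 FPKM to 9.32, 7.17 and 0.379 FPKM (log2 fold change -6.46 ± 0.9, and -5.09 without CSA03). Cytl1, encoding a small secreted protein, fell from 529.5, 334 and 419.8 FPKM to 5.13, 10.2 and 8.34 FPKM (-5.77 ± 0.74). The laminin chain gene Lamc3 fell from 21.2, 22.8 and 26.1 FPKM to 0.445, 0.495 and 0.075 FPKM (-5.93 ± 0.37). In none of these genes did the groups overlap. Tcap, encoding the titin cap protein telethonin, changed by -7.16 (-6.04 without CSA03), Klk10 of the kallikrein family by -6.94 and Stum by -6.06. Tcap is also a member of the list of skeletal muscle markers, which is described below with the tissue carried along. Tceal6 changed by -5.77 (-5.13 without CSA03). Tcap, Tceal6, the microRNA gene Mir143 and the mitochondrial tRNA gene mt-Te were each listed at 0 in CSA03. Leaving that mouse out moved the change of Mir143 from -6.09 to -3.3 and that of mt-Te from -5.3 to -3.32, and both were still called. Of the 1373 downregulated genes, 241 were at 0 in CSA03, against 1 of the 1604 upregulated.

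The smooth muscle contraction genes fell as a whole. All 32 on the list were tested, all 32 were downregulated against a background of 9.36%, and their log2 fold changes lay between -4.54 and -1.53 with a median of -2.92 (-2.75 without CSA03), beside a median of -0.059 over all tested genes. Myh11, the smooth muscle myosin heavy chain (chr16:14194535-14291372, minus strand), stood at 968, 836 and 982 FPKM in CSS and at 35.5, 37.7 and 46.5 FPKM in CSA (log2 fold change -4.54 ± 0.14, adjusted p = 2.03e-08). Acta2, smooth muscle α-actin (chr19:34241090-34255590, minus strand), was the most abundant of the 32 with 6438, 5778 and 6435 FPKM, and fell to 732, 774 and 683 FPKM (-3.09 ± 0.19). Every Ang II mouse thus held less of both transcripts than any saline mouse. Cnn1, the actin-binding protein calponin, fell from 565, 465 and 519.5 FPKM to 34.1, 44.1 and 21.2 FPKM (-4.02 ± 0.26). Smtn, encoding smoothelin, fell from 330.5, 311 and 405 FPKM to 50.3, 50.6 and 23.2 FPKM (-3.15 ± 0.28). The dense body and Z-disc genes Synpo2 and Pdlim3 fell by 4.37 and 4.2 on the log2 scale. Tagln, encoding SM22, fell from 23.7, 22.8 and 25 FPKM to 3.72, 6.59 and 2.04 FPKM (-2.66 ± 0.32), and its level is uncertain because 67.9% of its exonic bases are shared with another annotated gene.

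The 32 genes together made up 5.73%, 5.43% and 6.03% of the summed FPKM in CSS and 0.754%, 0.794% and 0.621% in CSA, a ratio of the means of 0.126 (exact permutation p = 0.1). In bulk tissue, fewer cells of a type and less RNA per cell cannot be told apart. Most macrophage markers moved in the opposite direction. Of 21 macrophage markers 16 rose and 1 fell, beside 10.9% and 9.36% of all tested genes. Their summed level went from between 343 and 417 FPKM in CSS to between 2830.0 and 3212 FPKM in CSA, with no marker at 0 in all mice of either group. Their part in the fall of contraction genes was not tested. In CCN2fl/fl mice limma called 0 of the 32 genes between CFA and CFS, with 7 at an unadjusted p under 0.05 and a median of -0.29. The difference between both Ang II effects was itself called downward for 29 of the 32, beside 7.31% of all tested genes, and not for 3, among them Rock1 and Cald1.

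**Figure D2:**
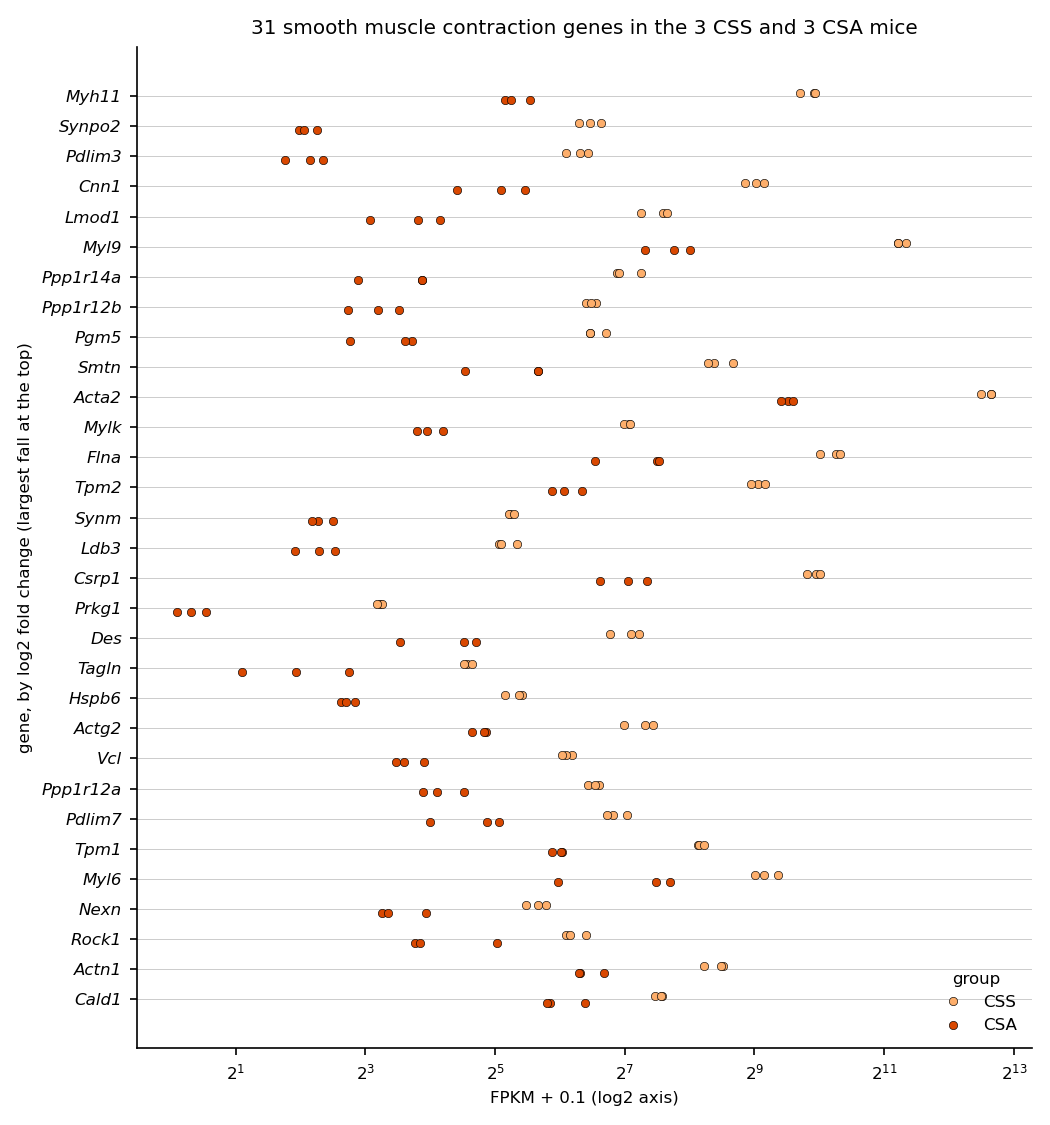
FPKM + 0.1 of 31 of the 32 smooth muscle contraction genes in the 3 CSS and 3 CSA mice, on a log2 axis, ordered by log2 fold change. Each point is 1 mouse. For each of the 31 genes the 3 CSA mice lie below the 3 CSS mice, beside 29.1% of all tested genes.

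The promoters of these genes were searched for the CArG box, the element bound by SRF, in the 250 bases before and 50 bases after each RefSeq start (GRCm38.p6, both strands). Only exact matches to CCWWWWWWGG, where W is A or T, were counted, so that variant boxes were missed. Of 33 promoters of the 26 contraction genes that matched the RefSeq table, 5 held it (15.2%), from Myl9, Vcl, Myl6 and 2 starts of Ldb3, beside 1.63% of all 32851 promoters. The 2 windows of Ldb3 overlap and hold the same box, which is counted for each, so that the 5 promoters hold the box of 4 genes. The promoter of Myl9, the gene of the regulatory light chain of smooth muscle myosin, is shown because it had the largest fall of these genes. Myl9 fell from 2387, 2375 and 2578 FPKM to 216, 256 and 158 FPKM (log2 fold change -3.57 ± 0.18). Its window lies on the plus strand at chr2:156775214-156775513, and capitals mark the match, whose first base lies 161 bases before the start.
Myl9: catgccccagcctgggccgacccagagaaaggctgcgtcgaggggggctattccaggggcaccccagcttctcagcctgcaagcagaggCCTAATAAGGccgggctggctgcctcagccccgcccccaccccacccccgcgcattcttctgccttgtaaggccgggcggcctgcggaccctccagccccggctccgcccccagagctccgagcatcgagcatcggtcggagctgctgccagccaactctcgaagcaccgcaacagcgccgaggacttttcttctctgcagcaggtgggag
A match is a description of the letters, and no match says only that they are not in this window.

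Genes that set the membrane potential and calcium of SMC fell in part. Of 25 ion channel and calcium handling genes 22 were tested and 13 were downregulated, beside 9.36% of all tested genes, with a median of -1.68. Kcnab1, a subunit of voltage-gated potassium channels, fell from 17.7, 17.1 and 16.3 FPKM to 1.43, 1.11 and 1.61 FPKM (log2 fold change -3.55 ± 0.16). Ryr2, a calcium release channel of the sarcoplasmic reticulum, fell from 3.75, 4.13 and 3.49 FPKM to 0.168, 0.219 and 0.315 FPKM (-3.56 ± 0.24). Pln, whose product phospholamban inhibits the calcium pump, changed by -3.24 from a level near 1 FPKM and with 64.7% of its exonic bases shared with another gene. The remaining 9 tested members did not pass.

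Some receptors for vasoconstrictors fell and others were not called. Of 27 tested genes of vasoactive signaling, 15 fell, beside 9.36% of all tested genes, with a median of -1.78. The α1-adrenergic receptor genes Adra1d and Adra1a, which mediate constriction by noradrenaline, fell by 4.36 and 4.18 on the log2 scale, Adra1d from 33.2, 20.6 and 33.7 FPKM to 1.5, 2.38 and 0.584 FPKM. Of the receptors for Ang II, the AT1 gene Agtr1b fell from 5.51, 7.77 and 7.98 FPKM to 0.528, 0.812 and 0.79 FPKM (log2 fold change -3.15 ± 0.25), whereas Agtr1a measured 1.16, 1.2 and 0.775 FPKM in CSS and 1.17, 1.32 and 1.55 FPKM in CSA (0.35 ± 0.24, adjusted p = 0.264). The CSS and CSA values of Agtr1a overlapped. Agtr2 did not reach the level needed for a test. Both endothelin receptor genes were not called, with log2 changes of 0.91 (adjusted p = 0.00536) for Ednra and 1.08 (adjusted p = 0.072) for Ednrb. Rgs5, which dampens G protein signaling in mural cells, fell from 1656, 1487 and 1649 FPKM to 160.0, 186 and 194 FPKM (-3.15 ± 0.27).

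Among 22 genes of smooth muscle transcription factors and the Notch pathway, 9 fell, beside 9.36% of all tested genes. The median was -1.36, and 7 fell without CSA03. Myocd, encoding myocardin, fell from 42.5, 32.7 and 22.4 FPKM to 2.06, 2.66 and 3.67 FPKM (log2 fold change -3.48 ± 0.33, adjusted p = 9.68e-06). Srf itself fell from 46.5, 51.3 and 50.4 FPKM to 22, 19.9 and 6.2 FPKM (-1.81 ± 0.38), and without CSA03 its change was -1.23 and under the fold limit. The value of CSA03 thus decided that call. The Notch target genes Heyl and Hey2 changed by -3.65 and -2.42, and Klf15, a Kruppel-like factor, by -2.65. Klf4, a Kruppel-like factor that represses contractile genes in cultured SMC, measured 31.6, 44.1 and 32.7 FPKM in CSS and 14, 13.6 and 11.4 FPKM in CSA, and its change of -1.46 ± 0.21 did not reach the fold limit.

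Matrix genes split by compartment. Of 31 tested genes of interstitial matrix and collagen synthesis 11 rose, 1 fell and 19 were not called (median 0.56). Of 25 basement membrane and integrin genes 1 rose and 14 fell (median -1.82). Over all tested genes the shares were 10.9% up and 9.36% down. Of the 29 interstitial genes that passed the limit of 1 FPKM without CSA, 9 rose, beside 5.83% of all genes of that kind, and 1 fell. Col1a1, the main chain of type I collagen (chr11:94936224-94953042, plus strand), rose from 579.8, 696 and 634 FPKM to 3262, 2561 and 2647 FPKM (log2 fold change 2.15 ± 0.16, adjusted p = 1.92e-06). Col3a1 rose from 389, 496 and 413 FPKM to 1851, 1582 and 1456 FPKM (1.91 ± 0.14). The interstitial genes together held 2.40%, 2.52% and 2.43% of the summed FPKM in CSS and 4.68%, 4.01% and 4.45% in CSA, while the floxed Ang II mice stood at 4.08%, 3.60% and 3.25%, above all CSS mice and with 1 mouse inside the CSA range. P4ha3 and Plod2, which hydroxylate collagen, increased by 4.8 and 2.44, the fibril-associated collagen gene Col12a1 by 3.78 and the hyaluronan synthase gene Has2 by 2.74. Thbs1, encoding the adhesive glycoprotein thrombospondin 1, rose from 68.7, 78.4 and 47.3 FPKM to 308, 256 and 298 FPKM (2.17 ± 0.28). Fn1, encoding fibronectin, went the other way, from 1315, 1051 and 1185 FPKM to 424, 346 and 406 FPKM (-1.59 ± 0.19).

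In the basement membrane, the type IV collagen genes Col4a3 and Col4a4 fell from 6.59, 6.86 and 6.69 FPKM to 0.39, 0.468 and 0.242 FPKM and from 10.7, 11.9 and 10.7 FPKM to 0.645, 0.755 and 0.264 FPKM (log2 fold changes -3.9 ± 0.18 and -4.18 ± 0.26). Itga8, the α8 integrin of SMC, fell from 359, 299 and 322 FPKM to 15.6, 16.1 and 21 FPKM (-4.21 ± 0.16). The list's share of summed FPKM went from 0.971%, 0.868% and 0.927% in CSS to 0.377%, 0.319% and 0.316% in CSA (exact permutation p = 0.1). In CCN2fl/fl mice the median of these 25 genes was 0.03. The difference of both Ang II effects was called downward for 14 of them, beside 7.31% of all tested genes.

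Elastic fibre genes had no common direction, with 3 of 20 up (5 without CSA01), 2 down and a median of 0.11. Over all tested genes 10.9% were up and 9.36% down. Eln, encoding elastin, measured 803, 827 and 851 FPKM in CSS and 970.4, 865 and 338 FPKM in CSA (log2 fold change -0.33 ± 0.42, adjusted p = 0.545). CSA01 and CSA02 were above the 3 CSS mice and CSA03 was far below them. Fbn1, encoding fibrillin 1, was not called either (0.69), while Lox, whose product crosslinks elastin and collagen, rose from 98, 94.1 and 79 FPKM to 293, 302 and 513 FPKM (1.99 ± 0.24). Of the latent TGF-β binding protein genes, Ltbp4 fell from 513, 416 and 474 FPKM to 49.6, 38.5 and 19.5 FPKM (-3.8 ± 0.3) and Ltbp1 changed by -2.67, but Ltbp2 rose by 2.29. Fbn2, a fibrillin gene of development, was listed at 0 in all CSS mice and at 2.98, 2.15 and 4.51 FPKM in CSA.

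Of 32 TGF-β and BMP pathway genes, 3 rose and 5 fell, beside 10.9% and 9.36% of all tested genes. The ligand gene Tgfb1 measured 19.4, 18.3 and 19.2 FPKM in CSS and 35.2, 28.1 and 19.4 FPKM in CSA (log2 fold change 0.5 ± 0.22, adjusted p = 0.0833), and the receptor genes Tgfbr1 and Tgfbr2 changed by -0.18 and 0.52. None of these 3 genes was called, and the adjusted p of Tgfbr2 was 0.00239. Grem1, a BMP antagonist, rose by 3.8, while the ligand gene Bmp6, the signal transducer Smad9 and the antagonist Fstl3 fell by 2.77, 2.22 and 2.39 on the log2 scale. In the CCN and YAP-TEAD list 1 of 15 tested genes rose and 2 fell, beside the same shares of all tested genes. Ccn3 fell from 589, 503 and 566 FPKM to 128, 158 and 125 FPKM (-2.02 ± 0.19), Ccn4 rose from 5.22, 4.93 and 6.65 FPKM to 21.7, 25.6 and 37.5 FPKM (2.29 ± 0.26), and Tead3 changed by -2.54 (-1.62 without CSA03).

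Of 33 tested genes of matrix proteases and their inhibitors 14 rose and 3 fell, with a median of 1.43. The limit of 1 FPKM was passed by 6 of the 33 only because of CSA, and of the other 27, 8 rose, beside 5.83% of all genes of that kind, and 3 fell. Ctss, encoding the elastolytic cathepsin S, rose from 18.9, 18.2 and 12.5 FPKM to 674, 669 and 796 FPKM (log2 fold change 5.44 ± 0.36, adjusted p = 1.22e-06). Mmp13, a collagenase, rose from 0.221, 0.0606 and 0.292 FPKM to 29.1, 33.9 and 44.2 FPKM (7.02 ± 0.62). Mmp3, encoding stromelysin 1, rose from 49.5, 61.6 and 50.3 FPKM to 259, 259 and 266 FPKM (2.29 ± 0.2). The 3 genes went up in every CSA mouse, from levels that differed widely in CSS. The gelatinase gene Mmp9 rose from 3.91, 3.66 and 2.77 FPKM to 19.2, 20.8 and 16.9 FPKM (2.44 ± 0.26) and the macrophage elastase gene Mmp12 by 3.3 to levels near 2 FPKM. Mmp2, the other gelatinase, went from 65, 80.2 and 71 FPKM to 261, 196 and 157 FPKM and its change of 1.48 ± 0.21 missed the fold limit, which it passed without CSA03 (1.65). Adam8 and the neutrophil collagenase gene Mmp8 increased by 5.32 and 5.15. Their inhibitor gene Timp1 rose from 19.2, 28.5 and 25.5 FPKM to 494, 677 and 259.8 FPKM (4.2 ± 0.55).

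Chemokine and receptor genes were upregulated in 29 of 33 tested members, with 1 downregulated and a median of 4.35. The limit of 1 FPKM was passed only with CSA by 12 members, and of the other 21, 17 were upregulated beside 5.83% of all genes of that kind. Ccl2, which attracts monocytes, rose from 0.898, 3.13 and 0.767 FPKM to 85.8, 70.8 and 61.6 FPKM (log2 fold change 5.68 ± 0.82, adjusted p = 0.000209). Its receptor gene Ccr2 rose from 1.27, 0.798 and 0.87 FPKM to 62.8, 59.2 and 85.4 FPKM (6.01 ± 0.41). Ligand and receptor thus increased in every CSA mouse. Cxcr2, the neutrophil receptor for the chemokine Cxcl5 named above, rose from 0.0883, 0.195 and 0.136 FPKM to 19.4, 22.6 and 30.3 FPKM (6.66 ± 0.52), and the monocyte chemokine gene Ccl7 by 6.04. As a share of summed FPKM the chemokine list held 0.0446%, 0.0574% and 0.0393% in CSS and 0.515%, 0.493% and 0.557% in CSA.

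The promoters of 21 upregulated chemokine and receptor genes were found in the RefSeq table, and 5 of them (23.8%) held an NF-κB site beside 4.51% of all promoters, those of Cxcl1, Cxcl2, Cxcl3, Cxcl10 and Ccl9. The same site stood in 12.1% of the promoters of downregulated contraction genes, 9.52% of those of interferon-stimulated genes and 4.55% of those of cell cycle genes. NF-κB is the transcription factor of many inflammatory genes. Its site was searched on either strand as GGGRNWYYCC, where R is A or G, W is A or T, Y is C or T and N is any base. Cxcl2, a neutrophil chemokine, is shown because it rose most among those with the most matches, from 0.234, 0.313 and 0.111 FPKM to 23.6, 21.8 and 12.8 FPKM (log2 fold change 5.94 ± 0.5). Its promoter lies on the plus strand at chr5:90903649-90903948. The capitals mark 2 overlapping matches, one per strand, whose first bases lie 97 and 96 bases before the start.
Cxcl2: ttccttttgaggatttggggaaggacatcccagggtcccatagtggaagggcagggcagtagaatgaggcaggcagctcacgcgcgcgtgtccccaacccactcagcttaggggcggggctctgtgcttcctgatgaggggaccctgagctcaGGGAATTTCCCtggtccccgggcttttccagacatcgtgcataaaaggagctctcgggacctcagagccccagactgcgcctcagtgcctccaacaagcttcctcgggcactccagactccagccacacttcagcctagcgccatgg

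Of 25 tested genes of cytokines, their receptors and inflammatory mediators, 17 rose (median 2.34), beside 10.9% of all tested genes. Of the 17 that passed the limit without CSA 10 rose, beside 5.83% of all genes of that kind. Il1b, encoding interleukin 1β, rose from 0.536, 0.538 and 0.241 FPKM to 91.3, 59.6 and 78.7 FPKM (log2 fold change 7.19 ± 0.81, adjusted p = 3.3e-05). Il6 rose from 0, 0.40 and 0.0568 FPKM to 17.5, 10.02 and 15.1 FPKM (6.13 ± 0.79). Tnf rose from 0.394, 0.132 and 0.308 FPKM to 5.89, 4.03 and 4.46 FPKM (3.75 ± 0.41). Genes that restrain interleukin 1 rose as well, the receptor antagonist gene Il1rn by 6.71 and the decoy receptor gene Il1r2 by 6.89. In the complement and acute phase list 9 of 15 tested genes rose, and of the 12 that passed the limit without CSA 7 rose, beside 5.83% of all genes of that kind. The 9 include Lcn2 for the neutrophil protein lipocalin 2 (0.78, 0.987 and 0.578 FPKM in CSS, 33.5, 40.5 and 57.6 FPKM in CSA), the receptor gene C3ar1 (4.74) and Hp for haptoglobin (3.85).

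Interferon-stimulated genes were upregulated in 24 of 26 members, beside 10.9% of all tested genes, with a median of 3.74. Of the 22 that passed the limit without CSA, 20 rose, beside 5.83% of all genes of that kind. Irf7, a transcription factor that amplifies the type I interferon response, rose from 2.24, 2.34 and 2.58 FPKM to 138, 121 and 99.9 FPKM (log2 fold change 5.58 ± 0.49, adjusted p = 6.84e-06). Zbp1, a sensor of nucleic acids, rose from 0.534, 0.872 and 0.742 FPKM to 46.3, 39.2 and 46.1 FPKM (5.77 ± 0.43). The antiviral gene Mx1 rose from 0.228, 0.47 and 0.546 FPKM to 41, 34 and 56 FPKM (6.44 ± 1.01) and Oasl1 by 5.64. In CCN2fl/fl mice the median of this list was 0.18, and the difference of both Ang II effects was called upward for 24 of the 26, beside 7.89% of all tested genes. Irf7 measured 3.81, 1.32 and 3.56 FPKM in CFS and 1.26, 5.98 and 2.47 FPKM in CFA, so that all floxed values lay far under those of CSA.

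The motif GAAANNGAA, the core of the element bound by interferon regulatory factors and STAT complexes, was found on either strand in 14 of 21 promoters (66.7%) of the 19 upregulated interferon-stimulated genes with a RefSeq promoter, beside 8.56% of all promoters. It stood in 23.8% of chemokine, 9.09% of contraction and 4.55% of cell cycle promoters. Ifit1, an interferon-induced RNA-binding protein, had 3 matches and rose from 1.32, 2.74 and 3.75 FPKM to 64.7, 68 and 154 FPKM (log2 fold change 5.14 ± 0.74), the largest rise among genes with that many. Its promoter lies on the plus strand at chr19:34640639-34640938, and capitals mark the matches, the first 2 of which overlap. Their first bases lie 109, 103 and 84 bases before the start.
Ifit1: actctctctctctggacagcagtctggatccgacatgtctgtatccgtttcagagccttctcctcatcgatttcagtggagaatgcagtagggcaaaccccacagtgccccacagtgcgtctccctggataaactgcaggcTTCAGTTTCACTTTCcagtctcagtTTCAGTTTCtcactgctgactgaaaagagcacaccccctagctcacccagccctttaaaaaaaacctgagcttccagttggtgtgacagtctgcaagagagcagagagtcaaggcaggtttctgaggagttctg
The AP-1 motif TGANTCA, the site of Fos and Jun dimers, stood in 7.81% of all promoters, in 12.1% of those of contraction genes, 14.3% of chemokine genes, 23.8% of interferon-stimulated genes and 0% of cell cycle genes.

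Most tested markers of leukocytes rose with Ang II. Of 21 macrophage markers 16 were upregulated and 1 was downregulated (median 3.23), beside 10.9% and 9.36% of all tested genes. The other 4 were not called, and the lowest log2 fold change in the list was -2.13. Of the 17 that passed the limit without CSA, 12 rose, beside 5.83% of all genes of that kind. Cd68, a lysosomal protein of macrophages, rose from 9.25, 8.37 and 7.57 FPKM to 111, 99.5 and 103 FPKM (log2 fold change 3.62 ± 0.31, adjusted p = 5.29e-06). Adgre1, encoding F4/80, rose from 6.98, 8.05 and 5.96 FPKM to 78.2, 65.9 and 72.3 FPKM (3.35 ± 0.25). Both were detected in every saline mouse, and the groups did not overlap. The genes Ly6c2 and Plac8, expressed by inflammatory monocytes, increased by 5.73 and 5.93, and Fcgr1 and Ms4a7 by 5.58 and 5.47. Lgals3, encoding the lectin galectin 3 of activated macrophages, rose from 10.5, 8.39 and 8.36 FPKM to 114, 116 and 47.5 FPKM (3.23 ± 0.41).

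Of 12 neutrophil markers 9 were tested and 9 rose, 7 of which passed the limit only because of CSA. The other 2 rose beside 5.83% of all genes that passed without CSA. S100a8 and S100a9, which form calprotectin, rose from 1.16, 0.777 and 1.66 FPKM to 114, 120.2 and 156 FPKM and from 2.78, 1.86 and 2.02 FPKM to 278, 276 and 251 FPKM (log2 fold changes 6.69 ± 0.41 and 6.87 ± 0.55). The 12 markers summed to between 3.68 and 4.7 FPKM in CSS and to between 464 and 551 FPKM in CSA. Mpo and Ngp were at 0 in all CSS mice, and the defining marker Ly6g was at 0.68 FPKM in CSA01 and at 0 in CSA02 and CSA03. Stfa2l1, also of this list, measured 0, 0.386 and 0 FPKM in CSS and 9.4, 12 and 33.6 FPKM in CSA.

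T and NK cell markers rose to lower summed levels than those of neutrophils, while B and plasma cell markers summed to between 248 and 617 FPKM in CSA. Of 18 T and NK cell markers 13 were tested and 13 rose, beside 10.9% of all tested genes. Of the 13, 12 passed the limit only because of CSA, so that the filter itself favoured their rise. The other 1 rose beside 5.83% of all genes that passed without CSA. The list summed to between 4.7 and 8.77 FPKM in CSS and to between 54.3 and 85.2 FPKM in CSA. Cd3d of the T cell receptor complex rose from 0.534, 0.119 and 0.0253 FPKM to 4.72, 3.4 and 2.8 FPKM (log2 fold change 3.82 ± 0.69), Cd2 by 3.86, Cd8b1 by 4.19 and Icos by 3.68. The levels of these genes stayed under 6 FPKM in every CSA mouse. Of 13 B and plasma cell markers 8 were tested and 7 rose, and 5 of the 8 passed the limit only because of CSA. The other 3 rose, beside 5.83% of all genes that passed without CSA. The list was led by the immunoglobulin genes Igkc (from 18.9, 3.25 and 1.99 FPKM to 385, 177 and 536 FPKM) and Jchain (5.3). The pan-B-cell genes Ms4a1 and Pax5 stayed under 1 FPKM in all 6 mice and were not tested. The gene segment Igkj3 was at 0 in CSS and at 18.1, 2.48 and 13.7 FPKM in CSA. Mzb1 increased by 5.29, with 57.2% of its exonic bases shared with another gene, and Cd22 by 3.04. All 9 tested MHC class II genes rose, with a median of 3.19, and 3 of them passed the limit only because of CSA. The other 6 rose beside the same 5.83%. H2-Ab1 rose from 55, 38.2 and 31.1 FPKM to 504, 450.4 and 417 FPKM (3.5 ± 0.45), and the list went from between 214 and 434 FPKM in CSS to between 2682 and 3114 FPKM in CSA. The part of leukocyte content in the changes of chemokine, cytokine, interferon and protease genes was not tested.

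Genes of lymph node stroma, a tissue that lies beside the aorta, were near 0, with 1 of 6 tested. That gene, Cxcl13, a B cell chemokine, rose from 1.45, 0.563 and 0.44 FPKM to 2.7, 6.48 and 10.8 FPKM (log2 fold change 2.83 ± 0.63), while Ccl19, Glycam1 and Madcam1 were at 0 in all CSS mice and under 1 FPKM in all CSA mice.

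Subunit genes of the phagocyte NADPH oxidase rose. In the redox list of 14 tested genes, 7 rose and 2 fell, beside 10.9% and 9.36% of all tested genes. Cybb, the membrane subunit, rose from 3.29, 2.29 and 2.34 FPKM to 48.5, 41.2 and 72.5 FPKM (log2 fold change 4.28 ± 0.28), and the cytosolic subunit genes Ncf1 and Ncf4 increased by 3.85 and 4.29. Nox1, the oxidase of SMC, was at or near 0 in all 6 mice and was not tested. Of 20 tested genes of cell death, 11 rose, with a median of 1.78, beside 10.9% of all tested genes. Of the 17 that passed the limit without CSA, 8 rose and the median was 1.01, beside 5.83% of all genes of that kind. They include Nlrp3 of the inflammasome (4.32), Ripk3 of necroptosis (2.79) and the BH3-only genes Pmaip1 (4.42) and Bcl2l11 (2.46).

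Genes of the cell cycle rose with Ang II in CCN2SMCΔ mice. In CCN2fl/fl mice their values pointed the same way without passing the test, mainly in CFA71 and CFA72. The list summed to 108, 159 and 53.9 FPKM in CFA71, CFA72 and CFA74, and to between 47.2 and 52.2 FPKM in CFS. Of 33 tested, 26 were upregulated (median 2.48), beside 10.9% of all tested genes. Of the 22 that passed the limit without CSA, 15 rose, beside 5.83% of all genes of that kind. Mki67, the proliferation antigen Ki-67, rose from 0.631, 1.29 and 0.667 FPKM to 7.07, 6.48 and 17.2 FPKM (log2 fold change 3.34 ± 0.64, adjusted p = 0.00136). The mitotic cyclin genes Ccnb1 and Ccnb2 rose from 0.191, 0.512 and 0.174 FPKM to 3.95, 4.95 and 3.85 FPKM (3.56 ± 0.61) and from 0.844, 0.881 and 0.69 FPKM to 9.1, 11.7 and 10.2 FPKM (3.53 ± 0.6). Birc5, encoding survivin, increased by 3.95 and the cyclin gene Ccne1 by 3.51. In CCN2fl/fl mice the median of the same 33 genes was 2.0, where limma called 0 and 24 had an unadjusted p under 0.05, all 24 of them upward. The difference of both Ang II effects ran from -1.35 to 1.76 on the log2 scale and was called by limma for 0 of the 33, with 8 at an unadjusted p under 0.05, so that equal responses were not shown either.

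The motif TTTGAA, the core of the cell cycle genes homology region, stood in 12 of 22 promoters of the upregulated cell cycle genes (54.5%) beside 17.9% of all promoters, in 23.8% of those of chemokine genes and of interferon-stimulated genes, and in 6.06% of those of contraction genes. Ccnb2 held 2 matches and had the largest rise among genes with 2. Its promoter lies on the minus strand at chr9:70421505-70421804 and is given in the direction of transcription. Capitals mark the matches, the first of which begins 167 bases before the start and the second at base 5 after it.
Ccnb2: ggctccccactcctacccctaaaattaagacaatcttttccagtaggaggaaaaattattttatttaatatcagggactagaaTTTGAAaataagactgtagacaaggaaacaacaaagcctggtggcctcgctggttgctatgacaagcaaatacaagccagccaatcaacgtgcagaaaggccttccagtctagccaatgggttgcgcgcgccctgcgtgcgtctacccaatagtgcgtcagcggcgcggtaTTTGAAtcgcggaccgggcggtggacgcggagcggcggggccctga

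Other resident cells changed in varied ways. Of 18 endothelial markers 3 rose and 4 fell (median -0.36), beside 10.9% and 9.36% of all tested genes. Pecam1, encoding CD31, fell from 212, 141 and 153 FPKM to 31.2, 29.4 and 43.5 FPKM (log2 fold change -2.28 ± 0.56). Nos3, the endothelial nitric oxide synthase, fell from 38.3, 26.4 and 39.6 FPKM to 6.69, 6.49 and 1.55 FPKM (-3.03 ± 0.71). Vwf fell by 2.31 on the log2 scale, and Emcn, encoding endomucin, rose by 2.56. Of 12 fibroblast markers 4 rose and 2 fell (median -0.04), beside the same shares. Of the 11 that passed the limit without CSA 3 rose, beside 5.83% of all genes of that kind, and 2 fell (median -0.57). Cthrc1, a gene of activated fibroblasts, rose from 0.777, 1.59 and 0.923 FPKM to 46.8, 66.6 and 53 FPKM (5.58 ± 0.34), Thy1 and Dpp4 by 2.6 and 3.49, and Clec3b, encoding tetranectin, fell from 310.3, 352 and 292 FPKM to 35.8, 37.6 and 17.6 FPKM (-3.46 ± 0.27). Members of both lists therefore moved in opposite directions. Of 13 tested chondrogenic and osteogenic genes 4 rose and 1 fell, beside 10.9% and 9.36% of all tested genes. The gene that fell is Sost, described above. Of these 13, 3 passed the limit only because of CSA. Of the other 10, 1 rose, beside 5.83% of all genes that passed without CSA, and 1 fell. Prg4 and Col10a1 increased by 3.87 and 3.52. Hhip, an antagonist of hedgehog ligands and no member of that list, fell from 11.4, 10.9 and 11 FPKM to 0.146, 0.145 and 0.28 FPKM (-5.3 ± 0.21).

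Tissue carried along with the aorta varied among mice. Of 14 adipocyte markers 5 fell, beside 9.36% of all tested genes. Their sum ran from 261 to 1199.7 FPKM in CSS and from 207 to 420.3 FPKM in CSA. Plin1, the perilipin of lipid droplets, measured 34.6, 15.1 and 8.1 FPKM in CSS and 4.21, 5.86 and 1.05 FPKM in CSA, and lost its call without CSA03. Cidea, Lep and Slc2a4 fell by 4.21, 3.0 and 3.52 on the log2 scale. The skeletal muscle gene Acta1 measured 1.12, 115 and 1.38 FPKM in CSS, high in 1 mouse, and Ckm was at 0 in all CSA mice and at 0.388, 18.6 and 0.394 FPKM in CSS. Of 7 tested skeletal muscle markers 3 fell, beside the same 9.36%, and 1 fell without CSS55, without CSA02 or without CSA03. Hemoglobin genes were high in CSA02, at 332 FPKM for Hbb-bs against 44.0 and 28.1 FPKM in CSA01 and CSA03. Limma called 0 of 5 tested erythrocyte markers, with 0 at an unadjusted p under 0.05, and 3 downward without CSA02. Of 9 tested Schwann cell markers only Gap43 was called (2.16), beside 10.9% of all tested genes upregulated, and 3 were called without CSS55. Of 7 mesothelial markers only Krt18 was tested (-0.45, not called). The part of these tissues in other results was not tested.

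Few genes of energy metabolism were called, beside 20.3% of all tested genes in either direction. Of 25 nuclear-encoded respiratory chain genes limma called 0, with 8 at an unadjusted p under 0.05 and a median of -0.21. Examples are Cox4i1 at 0.23 and Atp5a1 at -0.42 on the log2 scale. Of 22 glycolysis and hypoxia genes only Pfkm was called (-1.76), and Pkm and Aldoa changed by 0.16 and -0.92. Mitochondrially encoded genes held 8.33%, 8.10% and 7.73% of the summed FPKM in CSS and 4.43%, 4.22% and 9.02% in CSA, where CSA03 alone exceeded the CSS mice. Their change accordingly depended on that mouse: mt-Cytb changed by -0.85 and by -1.05 without it, and mt-Co1 by -0.27 and -0.73. mt-Nd4l was called at -1.58. Of 14 unfolded protein response genes only the asparagine synthetase gene Asns was called (2.36), beside 10.9% of all tested genes upregulated. The chaperone genes Hspa5 and Calr stood at 0.36 and 0.35. Of 18 immediate early genes 5 fell and 1 rose, beside 9.36% and 10.9% of all tested genes, and 3 fell without CSA03. Fosb fell from 7.35, 11.7 and 12.3 FPKM to 0.899, 0.861 and 0.502 FPKM (log2 fold change -3.63 ± 0.47), Egr3 and Nr4a1 by 2.61 and 2.25 on the log2 scale, and Jund changed by -2.29, or -1.43 without CSA03, with 52.6% of its exonic bases shared with another gene.

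**Figure D3:**
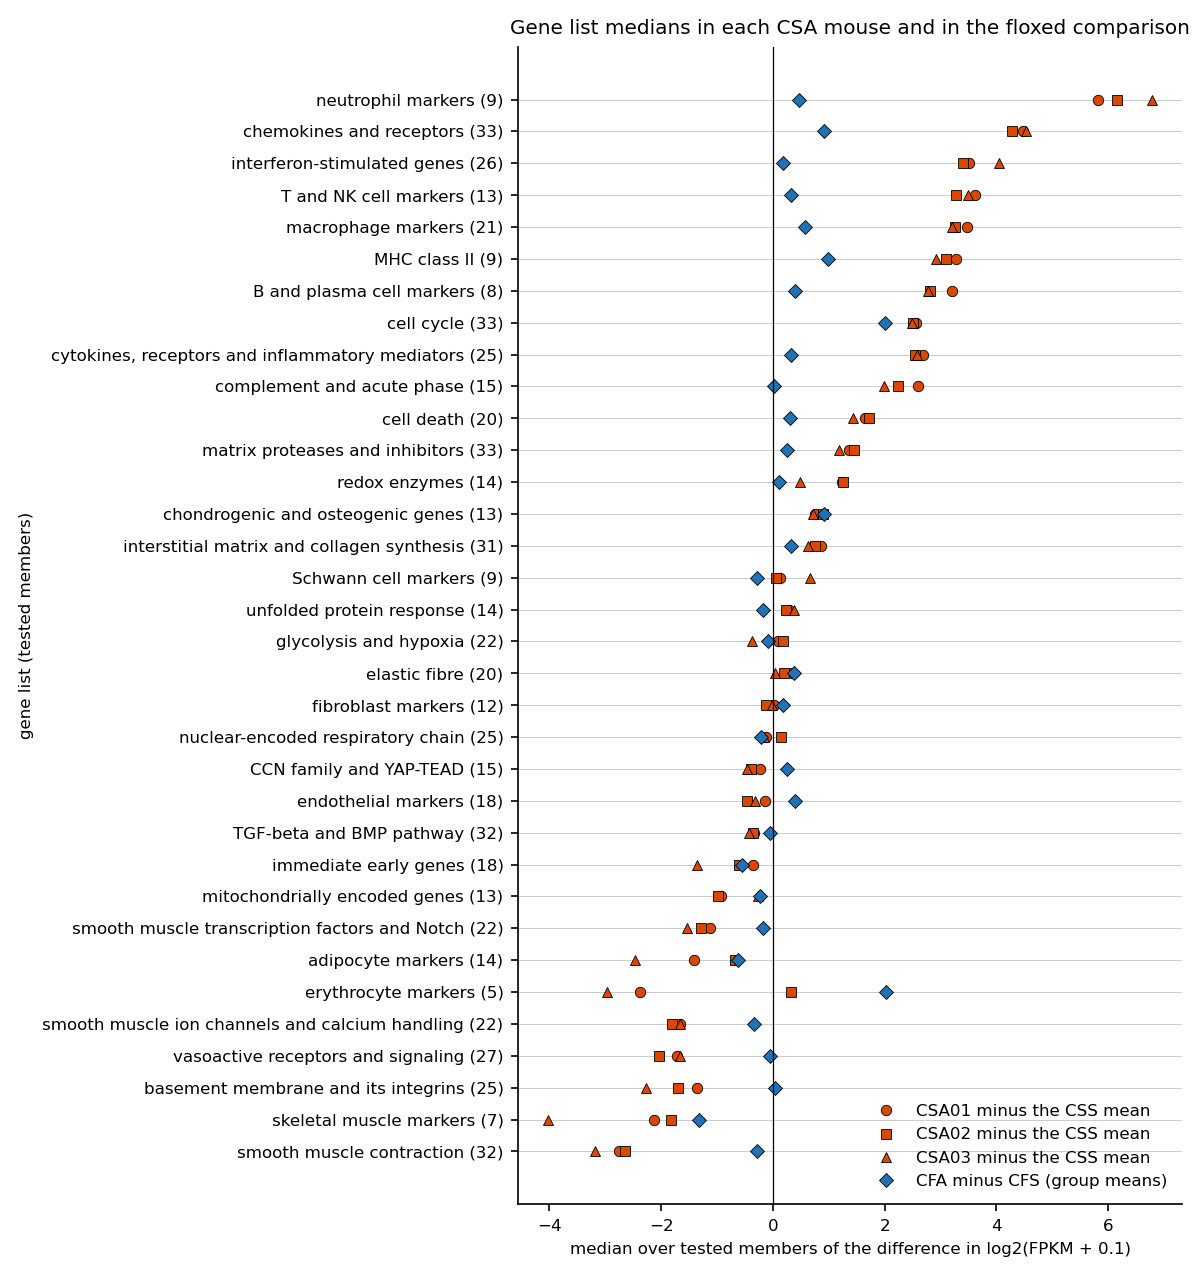
Median over the tested members of each gene list of the difference in log2(FPKM + 0.1), for the 34 lists with at least 5 tested members. Orange symbols give each CSA mouse minus the CSS mean, and blue diamonds give CFA minus CFS. The contraction list lay at -2.76, -2.65 and -3.18 in CSA01, CSA02 and CSA03, and at -0.29 in the floxed mice.

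Set beside the response of the CCN2fl/fl mice, that of the CCN2SMCΔ mice differed for many genes. The difference of both Ang II effects was called upward for 1158 genes (7.89%) and downward for 1073 (7.31%). Genes upregulated between CSS and CSA had a median log2 fold change of 2.9 there and of 0.51 between CFS and CFA, where 84.5% of them had the same sign, against 49.7% of all tested genes above 0 in that comparison. Genes downregulated between CSS and CSA had a median of -2.32 there and of -0.17 between CFS and CFA, with 67.4% of the same sign. These comparisons share no mice. The floxed Ang II mice were uneven, with CFA72 highest in several inflammatory lists. In CFA71, CFA72 and CFA74, macrophage markers summed to 454, 872 and 414 FPKM and MHC class II genes to 184, 694 and 263 FPKM. Chemokine and receptor genes summed to 164, 331 and 134 FPKM in the same mice. The part of CFA72 in the shared signs was not tested. The median of the difference between both effects was 0.85 for the cell cycle list, -2.6 for the contraction list, 3.28 for the interferon list and 3.4 for the chemokine list.

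**Figure D4:**
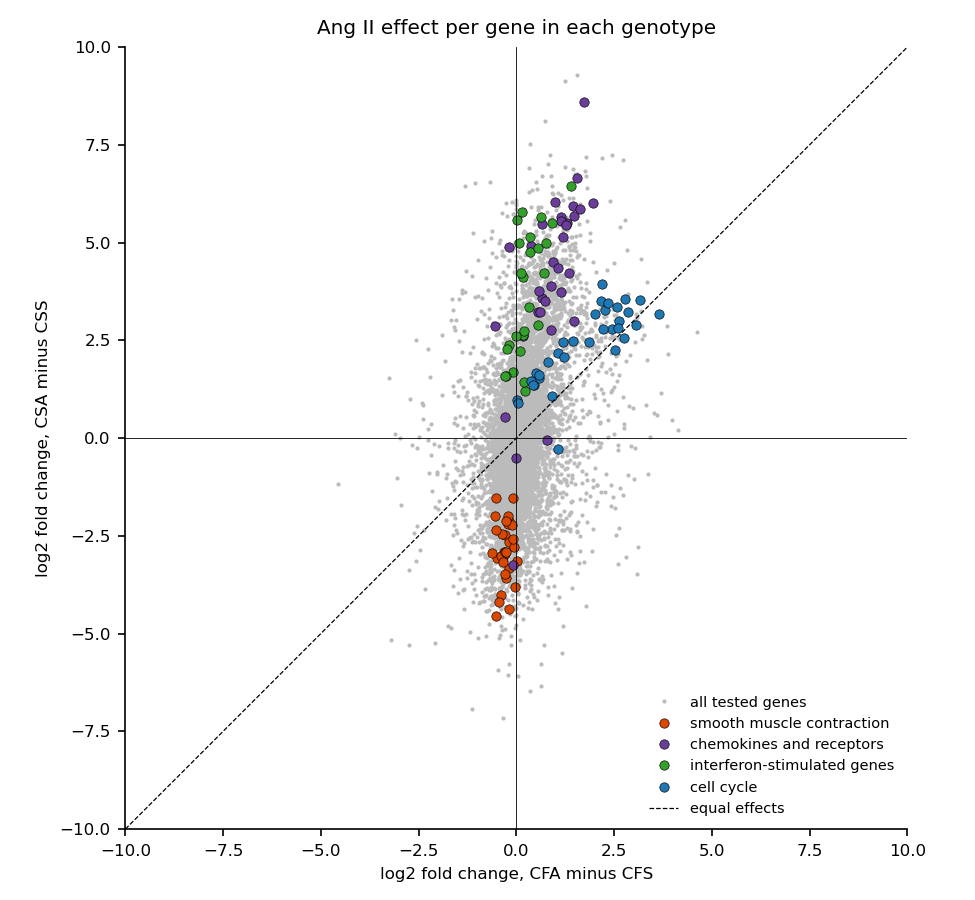
Log2 fold change of each of the 14676 tested genes between CFA and CFS (horizontal axis) and between CSA and CSS (vertical axis). Coloured points are the contraction, chemokine, interferon-stimulated and cell cycle genes, and the dashed line marks equal effects. Cell cycle genes lie nearest to the dashed line, with differences between both effects of -1.35 to 1.76, and the other 3 lists lie nearer to the vertical axis.

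**Figure D5:**
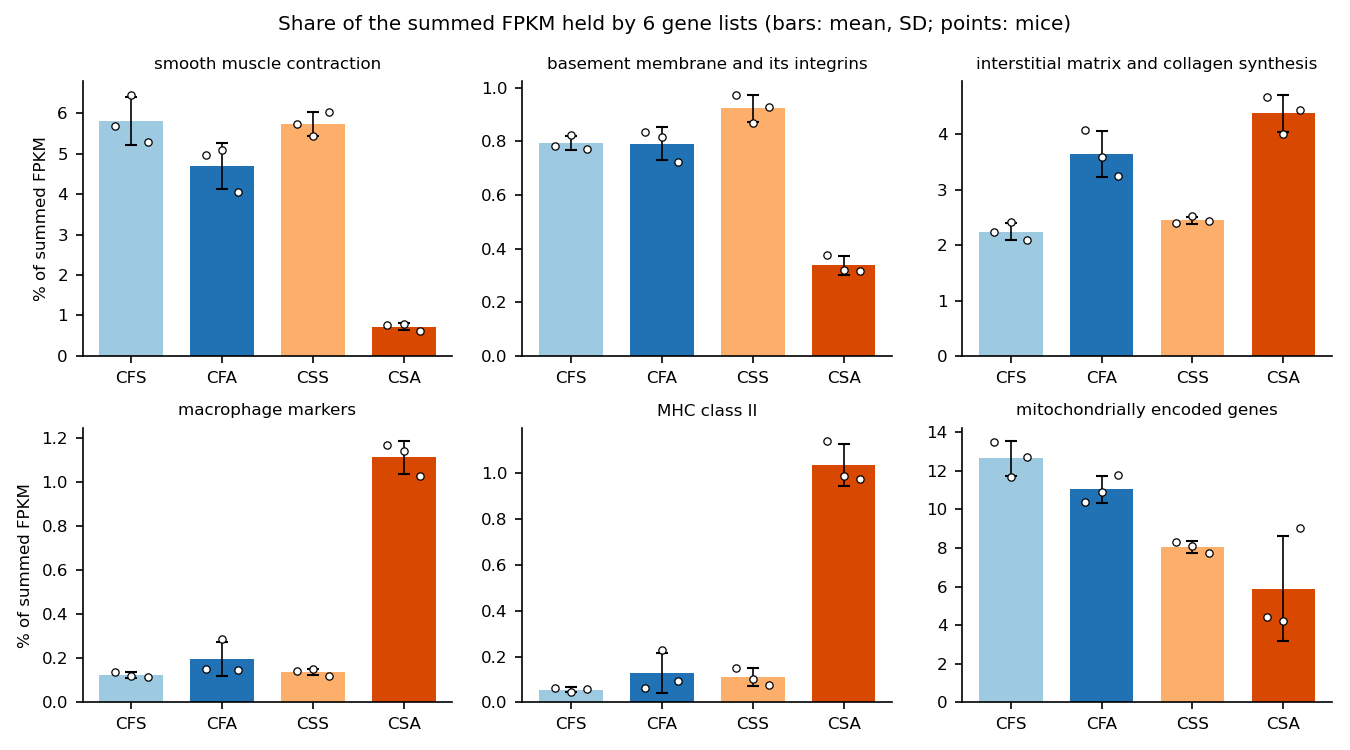
Share of the summed FPKM, in percent, held by 6 gene lists in each of the 12 mice, by group. Points are mice, and lines give the group mean and SD. The contraction share was 5.43% to 6.03% in CSS and 0.621% to 0.794% in CSA, and the mitochondrial share was the one in which CSA03 left the other CSA mice.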

How the data were processed

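The data are 12 RNA-Seq libraries, 1 per male mouse, in 4 groups of 3. Each column of the single table matched 1 mouse in the sample labels (0 columns unused). Its values are FPKM per gene and mouse as the authors deposited them, without pooling. The study's methods state DEG-Seq with a fold limit. The submitters' processing notes name HISAT2 2.0.5, StringTie 1.3.3b, featureCounts 1.5.0-p3 and mm10, without roles. Median-of-ratios factors over the 15848 genes above 0 in every library were equal, 1.014 in each of the 12, so the deposited FPKM carry a scaling between libraries.

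Symbols and exon lengths came from a GRCm38 annotation for 54409 and 54495 of 55092 features. Fragments were recovered from the step between low values. Of the values under 100 fragments, 98.1% to 98.5% per library were whole within 0.05. A value of 0 allows up to 3 fragments, for counting error only.

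Values were fitted as log2(FPKM + 0.1) with limma 3.58.1 in R 4.3.3 (eBayes with trend and robust settings), 1 coefficient per group over all 12 libraries, no covariate, and Benjamini-Hochberg adjustment over the 14676 tested genes within each comparison. Fold changes of low genes are understated on this scale. A call needs both the adjusted p (limit 0.05) and the size of the log2 fold change (limit 1.5). Lists are described by counts and medians, with no list test. Alternatives were the pseudocount, the filter, the scaling, the limma settings, the fold limit, and leaving out each mouse; array weights and a filter without CSA03 were added after seeing the data. Tables were made with pandas 2.3.3 and numpy 2.4.6 in Python 3.11.15, and figures with matplotlib 3.10.9. On simulated data for CSA against CSS, of 200 genes changed 8-fold among 14676, 193 were called with the right sign (96.5%), and 2 unchanged genes were called among 13416 tested. The changed genes were drawn only from those with a CSS mean over 1 on the log2 scale, and each gene had equal spread in all groups. The real mice lay 0.972 apart on average within CSA and 0.611 within CSS, so these rates are not those of the real data.

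The named genes are the 10 largest changes in each direction among called genes whose groups do not overlap and whose higher mean is at least 10 FPKM, the 5 in each direction of the same kind for the difference of both Ang II effects, the 4 called members of each of 36 lists with the largest change (the 2 most abundant where fewer than 2 were called), and 46 genes fixed by name. Further members are named for their promoters, for their absence, or as the exceptions to a count, and the last 2 kinds were chosen after their values were seen. Some genes taken by these rules are not reported here by name, but stay in every fit and count. Members and lists were chosen with earlier results of these data known. Of 712 list entries, 1 gene had no match. Promoters came from the RefSeq table of GRCm38.p6. For each of 4 lists the called member with the most matches, then the largest change, is printed. For 170 tested genes another annotated gene covers more than 50% of the exonic bases.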

Additional observations from a re-analysis of the deposited data

Results flagged for a closer look

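The effect of Ang II differed between CCN2SMCΔ and CCN2fl/fl mice for many genes, by a test of the difference itself, (CSA minus CSS) minus (CFA minus CFS), in the limma fit. The limits were those of the other calls, 0.05 for the adjusted p and 1.5 for the size of the log2 difference. It was called upward for 1158 genes and downward for 1073. All values below are such log2 differences, and no explanation was tested.

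Downward differences among genes of SMC were -2.73 for Acta2, -4.03 for Myh11, -3.62 for Cnn1, -3.16 for Smtn, -2.47 for Tagln, -4.18 for Synpo2 and -3.74 for Pdlim3. For their transcription factors they were -2.62 for Myocd, -1.58 for Srf, -3.6 for Heyl and -2.49 for Hey2. For channels and a pump regulator they were -3.19 for Ryr2, -3.11 for Kcnab1 and -2.52 for Pln, and for receptors and their regulators -3.09 for Adra1a, -4.2 for Adra1d, -2.48 for Agtr1b and -3.33 for Rgs5.

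In matrix and growth factor genes, downward differences were -5.47 for Lamc3, -4.45 for Col4a3, -4.52 for Col4a4, -3.79 for Itga8, -1.96 for Fn1, -2.39 for Ltbp1, -3.44 for Ltbp4, -3.77 for Bmp6, -2.6 for Smad9, -2.28 for Fstl3 and -2.21 for Ccn3. Upward differences in these groups were 3.6 for Col12a1, 1.98 for P4ha3, 1.75 for Plod2, 2.66 for Has2, 4.99 for Fbn2, 3.03 for Grem1, 1.78 for Ccn4, 2.83 for Prg4 and 4.36 for Spp1. Among proteases and inhibitors they were 2.35 for Mmp3, 4.84 for Mmp8, 3.03 for Mmp9, 6.21 for Mmp13, 4.46 for Ctss, 4.03 for Adam8 and 2.6 for Timp1.

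Chemokines and their receptors differed upward by 6.86 for Cxcl5, 4.21 for Ccl2, 5.06 for Ccl7, 2.82 for Cxcl13, 5.11 for Cxcr2 and 4.04 for Ccr2. Cytokine genes differed by 5.42 for Il1b, 4.69 for Il6, 2.55 for Tnf, 6.05 for Il1rn and 6.56 for Il1r2. Interferon-stimulated genes differed by 5.56 for Irf7, 5.04 for Mx1, 5.02 for Oasl1, 5.64 for Zbp1 and 7.88 for Slfn4. Acute phase and complement genes differed by 7.75 for Saa3, 5.58 for Lcn2, 4.26 for Hp, 6.37 for Kng2 and 3.75 for C3ar1.

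Markers of macrophages and monocytes differed by 2.98 for Cd68, 2.69 for Adgre1, 2.62 for Lgals3, 5.82 for Ly6c2, 4.88 for Plac8, 4.47 for Ms4a7, 7.37 for Ms4a4c, 5.11 for Fcgr1 and 4.97 for Fcgr4. Neutrophil genes differed by 5.81 for S100a8, 5.41 for S100a9, 4.79 for Retnlg and 7.21 for Stfa2l1. Lymphocyte and antigen presentation genes differed by 3.3 for Cd2, 3.69 for Cd8b1, 3.36 for Icos, 2.26 for Cd22, 6.28 for Igkc, 7.75 for Igkj3, 5.93 for Jchain, 4.78 for Mzb1, 2.26 for H2-Aa, 2.34 for H2-Ab1 and 2.39 for H2-Eb1. The oxidase subunit genes differed by 3.41 for Cybb, 2.98 for Ncf1 and 3.52 for Ncf4, and cell death genes by 3.33 for Nlrp3, 2.07 for Ripk3, 3.56 for Pmaip1 and 1.99 for Bcl2l11.

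In endothelium, fibroblasts, adipocytes and Schwann cells the differences were -3.27 for Nos3, -2.4 for Pecam1, -2.85 for Vwf, 1.94 for Emcn, 2.79 for Cthrc1, 2.46 for Dpp4, 1.89 for Thy1, -2.69 for Clec3b, -4.29 for Cidea, -2.35 for Lep, -2.95 for Slc2a4 and 2.05 for Gap43. Other genes differed by -6.83 for Tcap, -5.81 for Klk10, -6.8 for Sost, -5.83 for Stum, -5.58 for Cytl1, -6.4 for Tceal6, -6.0 for Hhip, -2.58 for Fosb, -2.35 for Egr3, -1.78 for Pfkm, 2.99 for Asns and 7.19 for Gm36107. The values of Cxcl5, Gm36107, Fbn2 and Igkj3 include a group listed at 0 and depend on the added 0.1. Many upward genes passed the limit of 1 FPKM only because of CSA, so that the filter itself favoured an upward difference. Among tested members these were 12 of 13 T and NK cell, 7 of 9 neutrophil and 5 of 8 B and plasma cell markers. They were also 12 of 33 chemokine and 8 of 25 cytokine genes. Most genes were named for the size of their change between CSA and CSS. With 3 mice per group no single library was tested as an outlier.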

How the results depend on the processing

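Of the 148 named genes called between CSA and CSS, 110 were called in the same direction in every alternative that tested them. An alternative that did not test a gene was not counted against it, and the mean limit of 5 FPKM left 127 of the 173 named genes tested. For the difference of both Ang II effects, 81 of 173 named genes kept their call, or the absence of one, in every alternative that tested them, and 92 did not. The count of upregulated genes (1604) became 526 with a mean of at least 5 FPKM, 3277 without the fold limit and 839 with the fold limit in the test (treat). That of downregulated genes (1373) became 746, 3504 and 509 under the same 3 settings and 809 with a pseudocount of 1. For the difference of both Ang II effects, the upward count (1158) became 448, 1873 and 182 and the downward count (1073) 630, 2004 and 198. The number tested fell to 7780 with the mean limit, which left 0 genes of the T and NK cell and lymph node stroma lists. The 4 genes called between CFA and CFS became 11 with FPKM scaled to an equal sum in every library, 1 without trend and robust settings, 0 with only both groups in the fit, 0 with treat, 147 with array weights and 19 without CSA03 and with the filter set over the other 11 libraries. Leaving out 1 mouse gave from 0 to 124 of them (124 without CFA74, 17 without CSA03), 1548 to 1644 upregulated and 1205 to 1533 downregulated genes. The cause of these shifts in the CFA and CFS count was not tested. Without CSA03, 1644 genes were upregulated and 1205 downregulated, and with the filter also set over the other 11 libraries 1160 and 1201. The mean root mean square distance was 1.67 between CSS and CSA and 0.777 between CFS and CFA. By 1 minus Spearman's rho these distances were 0.264 and 0.0431, and the first over the second rose to 6.13. Median-of-ratios scaling multiplies every library by the same factor and changes only the weight of the pseudocount. Srf, Jund, Plin1, Acta1 and Ckm lost their calls between CSA and CSS without CSA03, and Srf, Nos3, Plod2, Gap43 and Cxcl13 lost that of the difference of both effects. Leaving out 1 mouse moved small list counts besides those given above: without CSA03, 2 genes rose in each of the CCN, basement membrane, unfolded protein response and Schwann cell lists in place of 1, and 2 mitochondrially encoded genes fell in place of 1. No paired analysis was possible because the groups share no replicate numbers.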
